A study of Mus musculus with 12 samples.

Results

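SR proteins and heterogeneous nuclear ribonucleoproteins (hnRNPs) are the 2 large families of RNA-binding proteins that guide pre-mRNA splicing. SR proteins carry RNA recognition motifs and a domain rich in arginine and serine, and they typically bind exonic enhancers and recruit the U1 and U2 snRNPs. hnRNPs coat nascent transcripts, often repress nearby splice sites, and also act in mRNA export, stability and translation. Both families are widely expressed, and their balance is known to shape splice-site choice in pluripotent cells. The genes described here were all protein-coding RefSeq genes of mm10 with symbols that begin with Srsf or Hnrnp, each taken with 10 kb on either side of its span. There were 32 of them among 21627 protein-coding genes on chromosomes 1 to 19 and X, 11 SR and 21 hnRNP. hnRNPs that go under other symbols were counted separately, with the other splicing genes. Hnrnpa1l2-ps2 met the rule because the reference calls it protein-coding, although its symbol is that of a pseudogene.

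The samples were mouse pluripotent cells, measured by chromatin immunoprecipitation sequencing (ChIP-seq). Embryonic stem cells (ESCs) of the line V6.5 held a lentiviral vector in which a doxycycline-responsive promoter drives Cas9 with GFP, and a PGK promoter drives puromycin resistance and rtTA. The guides were directed at Klf4 alone or at Klf2, Klf4 and Klf5 in tandem, and clonal lines were picked after puromycin selection. The titles of the induced samples carry both TKO and KLF4 KO, so which genes were targeted was not settled by the labels. H3K27ac, the acetyl mark on lysine 27 of histone H3 that active promoters and enhancers carry, was measured before induction (0 h, 2 replicates) and after 24 h of doxycycline (2 replicates), with 2 inputs. Both times come from cells with the vector, guides and puromycin selection, the earlier one labelled WT, and the later one had the drug. Induced pluripotent stem cells (iPSCs) were measured for KLF4, a zinc-finger activator of the pluripotency network that binds GC-rich CACCC elements, in 2 replicates, and for H3K27ac in 2, with 1 input for each. All 12 samples, in 7 groups, were labelled as grown in 2i, the inhibitor pair that holds mouse cells in the naive state. The growth protocol names irradiated feeder cells, and neither the origin of the iPSCs nor the sex of any cells is stated.

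Each of the 4 ChIP groups was represented by 1 deposited list. Values of single replicates were not part of them, so the differences given here have neither a replicate error nor a test, and read depth is unknown. The ESC lists hold bins of 10 kb with an H3K27ac value of unstated normalisation and a whole-number score, and the iPSC lists hold peak positions. All 10 pluripotency markers examined, among them Pou5f1, Nanog and Sox2, had H3K27ac values at both times. Of 10 fibroblast markers, which feeder cells would express, only Col1a1 and Col3a1 had values in the ESC lists, and the other 8 had none. The contribution of feeder chromatin was not tested.

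Acetylation around the SR and hnRNP genes was widespread and differed little between the times once both lists were put on a common footing. Of the 32 genes, 31 had at least 1 bin with a value at both times, against 52% of all protein-coding genes, and Hnrnpa1l2-ps2 had none. The highest bin of each of these 31 genes ranged from 4.08 to 14.5 at 0 h, with a median of 7.79, and from 3.01 to 14.0 at 24 h, with a median of 6.59. It was lower at 24 h in all 31, but so was that of 84.5% of all measured genes, and 87.2% at equal level. Because the scaling between the lists is not stated, changes are given relative to the median ratio of 24 h over 0 h in all 22739 bins valued at both times, which was 0.854, or -0.23 on the log2 scale. A gene's relative log2 value is the mean over its bins of log2 of 24 h over 0 h, minus that median. Equal level means that each gene was set beside all measured genes in its own decile of mean log2 value over both times.

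The median relative log2 value was 0.04 over the 31 genes and 0.02 over all 11239 measured genes. With the highest bin of each gene alone it was -0.03. The SD across genes was 0.16 for the SR and hnRNP genes and 0.27 for all genes. For the 68 measured genes among the other splicing genes it was 0.17. Values below 0 were found in 13 of the 31, or 41.9%, against 46.7% of all genes and 49.2% at equal level. A change was counted where the relative log2 value was 0.32 or more from 0, which is a size and not a test. By it 2 of the 31 fell (Hnrnpa1 and Srsf11), against 8.06% of all genes, and 1 rose (Hnrnph3), against 9.45%. The SR genes had a median of 0.05 with 3 of 11 below 0, and the hnRNP genes a median of 0.01 with 10 of 20 below 0. With 25 kb flanks, or with the highest bin of each gene alone, none of these 3 passed it. The counts were no higher than the shares over all genes would give.

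**Figure D1:**
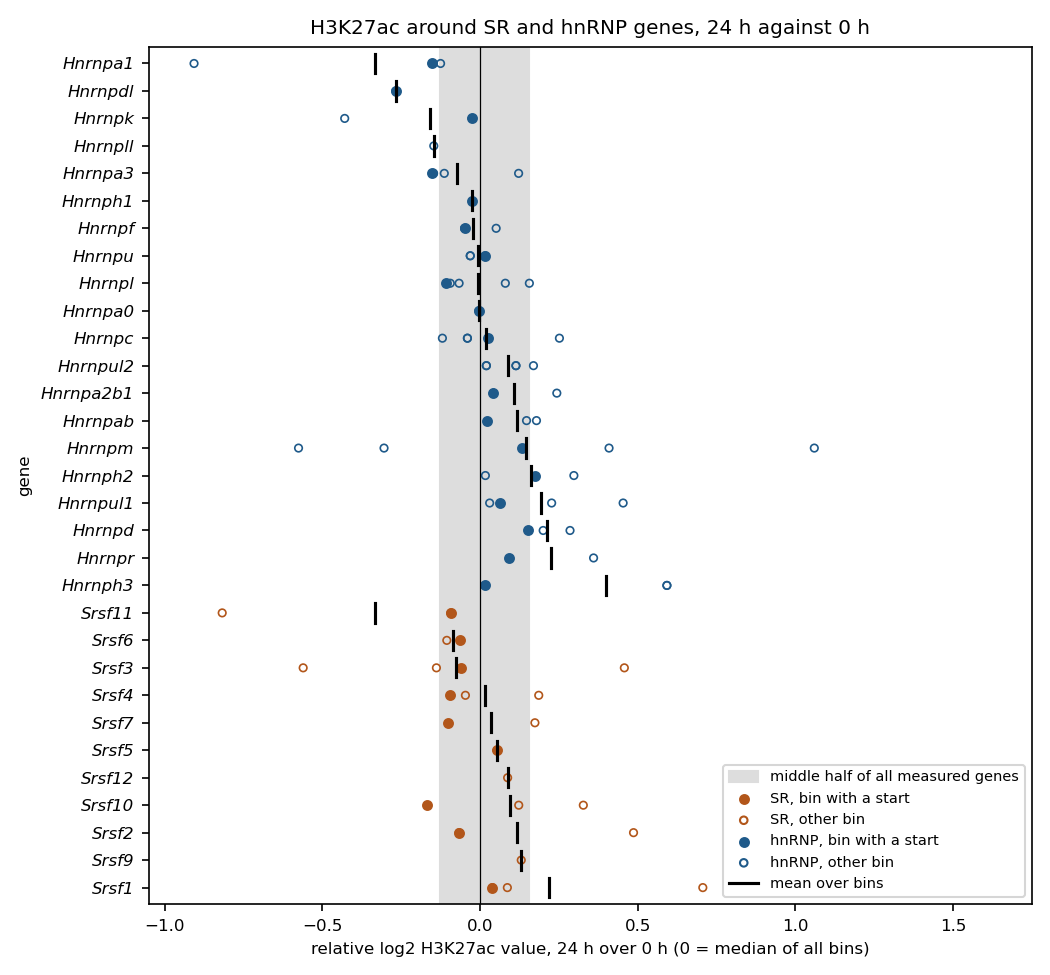
Relative log2 H3K27ac value of 24 h over 0 h in ESCs (x axis, no unit) for the 31 SR and hnRNP genes with a measured bin (y axis). Each circle is one 10 kb bin, filled for the single start bin taken per gene. Black bars are means over bins, and the grey band spans the middle 50% of all measured genes. Hnrnpll and Hnrnpul2, with no start in the reference table, have open circles. Filled circles lie between -0.27 and 0.17, while open circles reach from -0.91 at Hnrnpa1 to 1.06 at Hnrnpm.

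Among bins valued at both times, those with gene starts differed less between the times than the bins around them. An annotated start was on record for 30 of the 32 genes. The bin with that start had a value at both times for 27 of the 30, against 37.6% of all genes with a start and 71.7% at equal level. Where a gene's starts fell in several bins, the bin with the highest 0 h value was taken. The start bin held the gene's highest 0 h value in 22 of the 27, or 81.5%, against 63.4% of all genes with such a bin and 65.8% at equal level. These shares count ties, and at several of the 22, such as Hnrnpa0 and Hnrnpdl, a neighbouring bin held the same value. Start-bin values ran from 5.61 to 14.5 at 0 h and from 4.87 to 14.0 at 24 h, and were lower at 24 h in all 27, as in 88.2% of all genes. In relative terms they lay between -0.27 (Hnrnpdl) and 0.17 (Hnrnph2), with a median of -0.02 against -0.01 over all genes. Of the 27, 15 were below 0, against 52.1% of all genes and 53.7% at equal level. None of the 27 passed 0.32 in either direction. The start bin of Srsf9, with 4.25 at 0 h and no value at 24 h, is not among the 27. Over all bins with a protein-coding start 9.54% were lower and 6.72% higher by that size, and for bins of the same level as these 27 the shares were 14.9% and 7.51%.

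The other 62 measured bins of the genes with a start spread from -0.91 to 1.06, and 5 were lower and 10 higher by 0.32 or more. Some of the 62 hold a second start of the gene or the start of a neighbouring gene. Over all bins without any protein-coding start, a narrower class, the shares were 17.4% and 18.5%. Over all bins at the level of these 62 they were 15.5% and 14.8%. The bins past this size thus lay in the flanks or bodies of the genes and not at their starts. The largest fall was in the bin at chr15:103250001-103260000, in the flank of Hnrnpa1 and over Nfe2, a gene of the erythroid lineage, which went from 5.27 to 2.40. The largest rise, from 2.87 to 5.12, was in the bin at chr17:33660001-33670000 inside Hnrnpm.

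**Figure D2:**
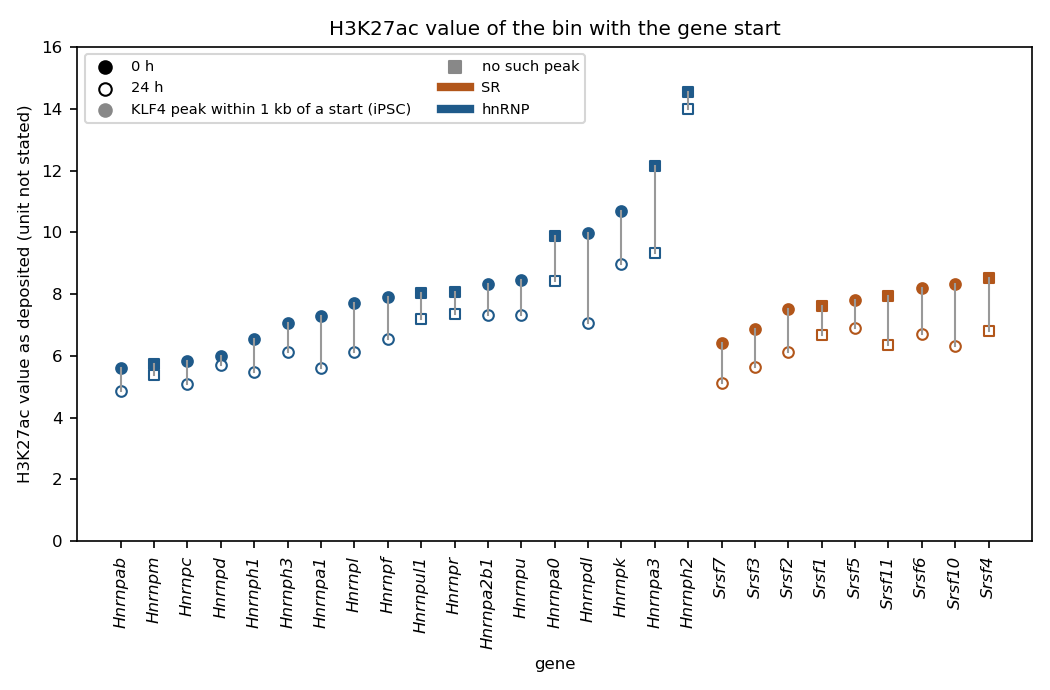
H3K27ac value as deposited (y axis, unit not stated) of the bin with the annotated start at 0 h (filled) and 24 h (open) in ESCs, for 18 hnRNP and 9 SR genes (x axis). Round points mark genes with an iPSC KLF4 peak within 1 kb of a start and squares those without. All 27 genes were lower at 24 h as deposited, with Hnrnph2 highest at 14.5 and 14.0 and Hnrnpab lowest at 5.61 and 4.87.

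Among the SR genes, Srsf1 and Srsf2 encode the founding members of the family, which bind exonic enhancers and act in both constitutive and alternative splicing. The start bin of Srsf1 (chr11:88046499-88053757) went from 7.61 to 6.68, a relative value of 0.04, and that of Srsf2 (chr11:116849897-116853675) from 7.52 to 6.14, a relative value of -0.07. Each gene also had a flank bin that rose by more than 0.32. The flank bin of Srsf1 over Vezf1 went from 2.52 to 3.51, and the flank bin of Srsf2 over Jmjd6, which encodes a hydroxylase, from 2.49 to 2.98. With these bins the means were 0.22 ± 0.33 (SD over 4 bins) for Srsf1 and 0.12 ± 0.32 (SD over 3 bins) for Srsf2.

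Srsf3 and Srsf7 encode SR proteins that also serve as adaptors for mRNA export through NXF1. The start bin of Srsf3 (chr17:29032660-29043372) went from 6.87 to 5.63, a relative value of -0.06. Its upstream flank bin fell from 3.48 to 2.02, while the bin over its 3′ end, with 2 iPSC KLF4 peaks, rose from 3.27 to 3.83. Its mean of -0.08 ± 0.42 (SD over 4 bins) thus joins bins that moved in opposite directions. Srsf7 (chr17:80200080-80207369) had a start bin of 6.41 at 0 h and 5.11 at 24 h, a relative value of -0.10.

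Srsf11 encodes an SR protein that interacts with splice-site recognition factors, and it had the lowest mean of the SR genes, -0.33 ± 0.42 (SD over 3 bins). That value came from the bin over its 3′ end (chr3:158010001-158020000), which fell from 4.73 to 2.29. The start bin of Srsf11 and its neighbour shared values of 7.94 at 0 h and 6.36 at 24 h, a relative value of -0.09. Srsf11 was also the only one of the genes with a bin valued at 24 h alone, against 20.8% of all genes with a value at either time. This bin lay next to the fallen one and carried the same 24 h value, 2.29.

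Srsf9, which encodes an SR protein with a short arginine- and serine-rich domain, was the SR gene with most bins valued at 0 h alone. Of 31 genes, 7 had such a bin, against 27.1% of all genes, and Srsf9 had 2 of the 8 bins concerned. They held values of 3.56 and 4.25 at 0 h, and the higher one holds its start. Both bins were listed at 24 h without a value, and a bin without a value was not shown to lack acetylation. The only bin of Srsf9 measured at both times, in its downstream flank, went from 3.22 to 3.01. Its level was thus in the lowest decile of measured genes, as was that of Hnrnpm.

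The remaining SR genes had means close to 0. Srsf4, Srsf5 and Srsf6 encode SR proteins with 2 RNA recognition motifs. Their start bins went from 8.50 to 6.80, from 7.79 to 6.91 and from 8.20 to 6.70, with relative values of -0.09, 0.05 and -0.06. Srsf10, whose product becomes a general splicing repressor when dephosphorylated, had the lowest start bin of the SR genes in relative terms, -0.17, from 8.31 to 6.32. Its gene body bin rose from 2.61 to 2.79, a relative value of 0.33. Srsf12, a relative of Srsf10, had a single measured bin, from 6.95 to 6.31, which reaches past its 10 kb flank, and no value at its start.

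The A/B hnRNPs bind UAG-containing elements and often oppose SR proteins at the same exon. Hnrnpa1 (chr15:103239943-103246698) had a start bin that went from 7.28 to 5.60, a relative value of -0.15, and shared these values with the bin before it. With the fallen flank bin over Nfe2, its mean was -0.33 ± 0.38 (SD over 4 bins). Hnrnpa3 had the second highest start bin, 12.1 at 0 h and 9.34 at 24 h, a relative value of -0.15. Hnrnpa0 went from 9.87 to 8.41, a relative value near 0, and Hnrnpa2b1 from 8.32 to 7.31, a relative value of 0.04. In these 4 genes the relative start values ran from -0.15 to 0.04.

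Hnrnpd encodes AUF1, a protein that binds AU-rich elements and affects mRNA stability, and Hnrnpdl and Hnrnpab encode its close relatives. Hnrnpd and Hnrnpdl are neighbours on chromosome 5, 54.4 kb apart, and shared no bin. Their relative values had opposite signs. The start bin of Hnrnpdl went from 9.96 to 7.07, a relative value of -0.27, and the next bin shared these values. The start bin of Hnrnpd went from 5.99 to 5.69, a relative value of 0.15, and its mean was 0.21 ± 0.07 (SD over 3 bins). Hnrnpab, on chromosome 11, had a start bin of 5.61 and 4.87, and its relative value of 0.02 lay between those of the other start bins.

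The H and F proteins bind runs of guanines. Hnrnph2, on the X chromosome, had the highest bin of all SR and hnRNP genes, 14.5 at 0 h and 14.0 at 24 h, and the highest relative start value, 0.17. Hnrnph1 went from 6.53 to 5.48 and Hnrnpf from 7.91 to 6.53, relative values of -0.03 and -0.05. Hnrnph3 had the highest mean of the 31 genes, 0.40 ± 0.33 (SD over 3 bins). Its start bin, from 7.07 to 6.11, had a relative value of 0.02, and the mean came from neighbouring bins over its 3′ end and over Rufy2 that shared a rise from 3.51 to 4.52.

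Hnrnpk, whose KH domains bind C-rich sequence, had a start bin of 10.7 at 0 h and 8.98 at 24 h, a relative value of -0.02. Its flank bin at chr13:58380001-58390000, with an iPSC KLF4 peak, fell from 6.26 to 3.97. Hnrnpc, which binds uridine tracts and keeps cryptic exons silent, went from 5.84 to 5.08 at its start, with a mean of 0.02 ± 0.13 (SD over 6 bins). Hnrnpu, a chromatin-bound scaffold protein, went from 8.47 to 7.32, a relative value of 0.02. Hnrnpl, which binds CA repeats, went from 7.72 to 6.12, a relative value of -0.11. Its relative Hnrnpll had a single measured bin, from 4.08 to 3.15.

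Hnrnpm, Hnrnpr and Hnrnpul1 had relative start values of 0.13, 0.09 and 0.06, and each had a bin in its body that rose by more than 0.32. Hnrnpm was the most uneven gene, with bins at -0.58, -0.30, 0.13, 0.41 and 1.06 (mean 0.14 ± 0.64, SD over 5 bins). In Hnrnpr the bin over the 3′ end went from 2.82 to 3.09, and in Hnrnpul1 the corresponding bin went from 3.19 to 3.73. Hnrnpul2, with no start in the reference table, had 5 measured bins between 0.02 and 0.17.

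The 9 genes in the highest decile of level, against 10% of all measured genes, were Hnrnpa0, Hnrnpa3, Hnrnpdl, Hnrnpf, Hnrnph2, Hnrnpk, Hnrnpu, Srsf5 and Srsf12. The level of Srsf12 rests on its 1 measured bin, which reaches past its flank. That bin held 5 iPSC H3K27ac peaks, and none of them lay in Srsf12 or its flanks, so its level may not describe the gene. Some genes have a single bin or a few bins with shared values, and 18 pairs of neighbouring bins among the 132 listed bins of the 32 genes held equal values at both times, so bins are not independent. An SD over bins describes the spread along a gene and not the spread between cultures.

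The bin score, a whole number whose meaning is not stated, was higher overall at 0 h, with a total of 186496 against 168512 at 24 h, a ratio of 0.904. Summed over the 32 genes and their flanks it was 835 at 0 h and 780 at 24 h. A summed score of 10 or more over both times was reached by 30 of the 32 genes, or 93.8%. This compares with 46.2% of all genes and 84.6% at equal level. Relative to the ratio of the totals, the median log2 change was 0.04 in these 30 and 0.04 in all 9970 genes compared. By the size of 0.32 the score fell in 2 genes, against 18.3% of all genes and 17.3% at equal level, and rose in 2, against 22% and 19.4%.

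Srsf9 went from 15 to 8, a relative log2 score of -0.76, and is also the gene whose start bin had a value at 0 h alone. Hnrnpu went from 20 to 13, a relative score of -0.48, although its bins had relative acetylation values of -0.03 and 0.02. Hnrnph3 rose from 11 to 13 and Srsf7 from 23 to 26, relative scores of 0.39 and 0.32. Among genes with high sums, Hnrnpul2 had 128 at 0 h and 119 at 24 h, Srsf3 60 and 53, Hnrnpc 55 and 48, and Hnrnpa1 50 and 45. All of these lay close to the ratio of the totals, with relative scores of 0.04, -0.03, -0.05 and -0.01.

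**Figure D3:**
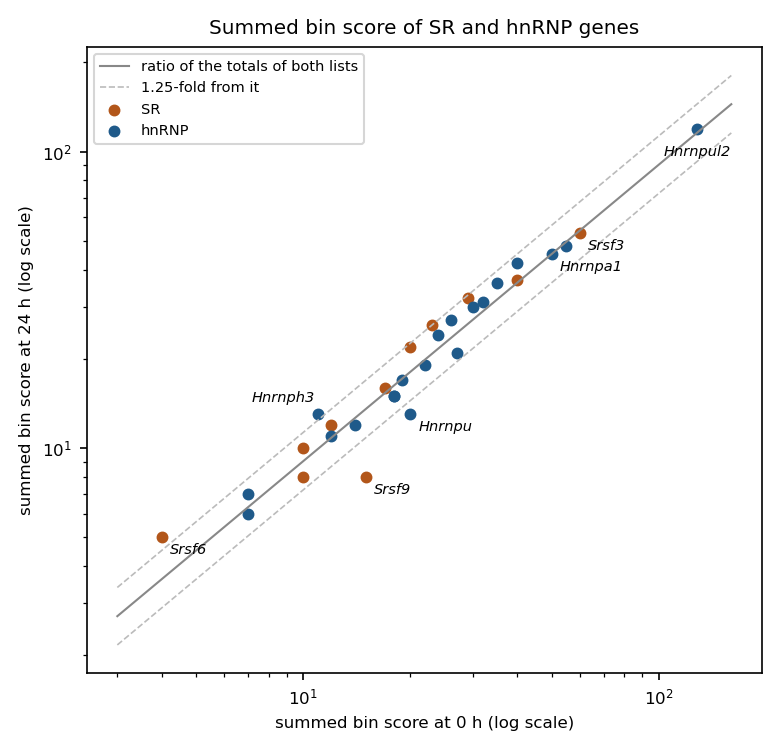
Summed bin score at 0 h (x axis, log scale) and at 24 h (y axis, log scale) of the SR (orange) and hnRNP (blue) genes with their flanks. The solid line is the ratio of the totals of both lists, 0.904, and dashed lines are 0.32 from it on the log2 scale. Srsf9, at 15 and 8, and Hnrnpu, at 20 and 13, lie below the lower dashed line. Srsf6, at 4 and 5, is under the minimum sum and entered no count.

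In iPSCs, the SR and hnRNP genes carried KLF4 mostly next to their starts. A KLF4 peak was found in the span or flanks of 22 of the 32 genes, or 68.8%, against 53.2% of all protein-coding genes and 74.7% at equal level. At 3 or more peaks there were 7 genes, against 13.2% of all genes and 22.6% at equal level. Within 1 kb of an annotated start, by the peak's centre, KLF4 was found at 18 of the 30 genes with a start, or 60%, against 29.4% of all genes and 41.9% at equal level. A peak lay over the start itself in 6 of 30 (Hnrnpa1, Hnrnpf, Hnrnpu, Srsf5, Srsf6 and Srsf7), against 16.9% and 24.0%. The nearest peak centre was within 1 kb upstream of the start in 15 of the 30 genes, or 50%, against 16.9% of all genes and 24.4% at equal level. It was within 1 kb downstream in 3 of the 30 (Hnrnpab, Hnrnph1 and Hnrnpl), or 10%, against 12.4% and 17.4%. These shares describe 1 list and have no replicate error.

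**Figure D4:**
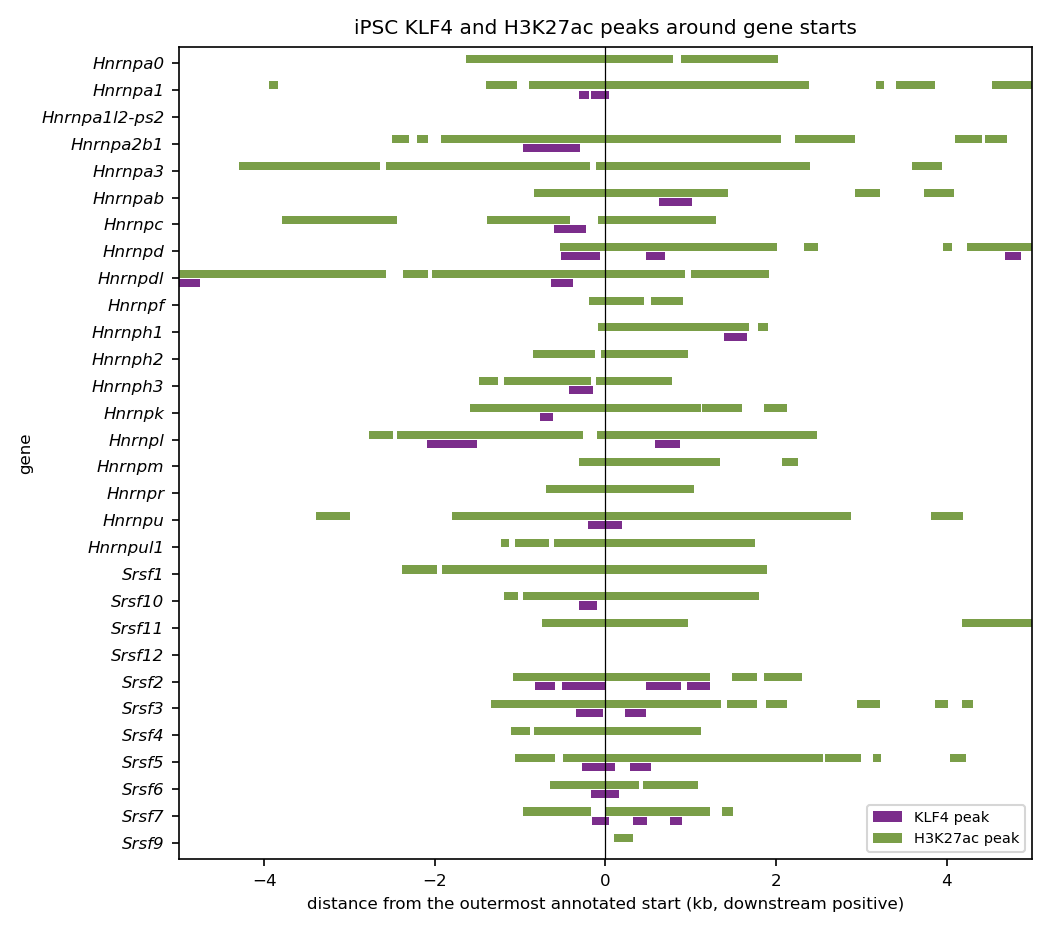
Positions of iPSC KLF4 peaks (purple) and H3K27ac peaks (green) within 5 kb of the outermost annotated start (x axis, kb, downstream positive) of the 30 genes with a start (y axis). KLF4 peaks sit mostly just upstream of the start inside or beside H3K27ac peaks. The KLF4 peaks of Hnrnpf lie at internal starts more than 5 kb downstream and are outside the plot.

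Hnrnpf and Srsf2 had most KLF4 peaks, 5 each, followed by Hnrnpl and Srsf3 with 4 and by Hnrnpd, Hnrnpdl and Srsf7 with 3. In Srsf2, 4 of the 5 peaks lay in its start bin, with centres at positions -709 to 1093 in bp from the start, upstream negative. In Hnrnpf the peaks clustered at internal starts, the closest with its centre at -57 bp from one of them. In the SR genes the nearest centre was at -6 bp in Srsf6, -56 bp in Srsf7, -82 bp in Srsf5 and -182 bp in Srsf3. The remaining genes with KLF4 within 1 kb were Hnrnpa1, Hnrnpa2b1, Hnrnpc, Hnrnpd, Hnrnpdl, Hnrnph3, Hnrnpk, Hnrnpu and Srsf10, all upstream, with centres between -691 bp (Hnrnpk) and -5 bp (Hnrnpu). No KLF4 peak was found around 10 genes: Hnrnpa0, Hnrnpa3, Hnrnph2, Hnrnpll, Hnrnpm, Hnrnpul1, Srsf1, Srsf4, Srsf11 and Srsf12. Hnrnph2 and Hnrnpa3, the genes with the highest start bins at 0 h in ESCs, are among these 10.

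The 49 KLF4 peaks of these genes lay largely in acetylated chromatin. Of the 49, 42 shared at least 1 bp with an iPSC H3K27ac peak, or 85.7% (95% exact binomial interval 72.8 to 94.1, counting error only), against 50.5% of KLF4 peaks in the spans of all protein-coding genes. Around the 75 other splicing genes described below it was 81 of 106 peaks, or 76.4% (67.2 to 84.1). Around the 10 pluripotency markers it was 31 of 37, or 83.8%. High overlap was thus not particular to the SR and hnRNP genes, and no share at equal level was computed. All 29 peaks within 1 kb of a start were acetylated (interval 88.1 to 100), against 62% of KLF4 peaks within 1 kb of any protein-coding start. Of the 19 peaks farther from the gene's own starts 12 were acetylated, or 63.2% (38.4 to 83.7). Of all KLF4 peaks more than 1 kb from any protein-coding start it was 44.1%, a class that leaves out peaks at neighbouring starts. The last peak belonged to Hnrnpul2, with no start in the reference table, and was acetylated. The 7 unacetylated peaks were distal ones at Hnrnpk, Hnrnpr, Srsf6, Srsf3 and Srsf9, the last 2 genes with 2 each.

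H3K27ac itself covered nearly all starts in iPSCs. A peak was found around 31 of the 32 genes, against 60.4% of all genes and 91.6% at equal level, and Srsf12 was the exception. The median was 5 peaks and 4644 bp covered, against 1 peak and 576 bp over all genes. Hnrnpc had most with 26 peaks, followed by Hnrnpf with 15, and 8 genes had 10 or more, against 6.37% of all genes and 14.0% at equal level. An H3K27ac peak lay over the start of 27 of 30 genes, or 90%, against 26.4% of all genes and 47.6% at equal level. The 3 exceptions were Hnrnpa1l2-ps2, Srsf9 and Srsf12. Srsf9, whose start bin had no value at 24 h in ESCs, had a short peak that began just downstream of its start. By peak centre within 1 kb the count was 26 of 30, against 41.3% and 65.7%, and within 500 bp it was 17, against 37.0% of all genes. The 75 other splicing genes described below shared this trait. All 75 had an H3K27ac peak around them, and 55 of the 57 with a start had a peak centre within 1 kb of it.

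**Figure D5:**
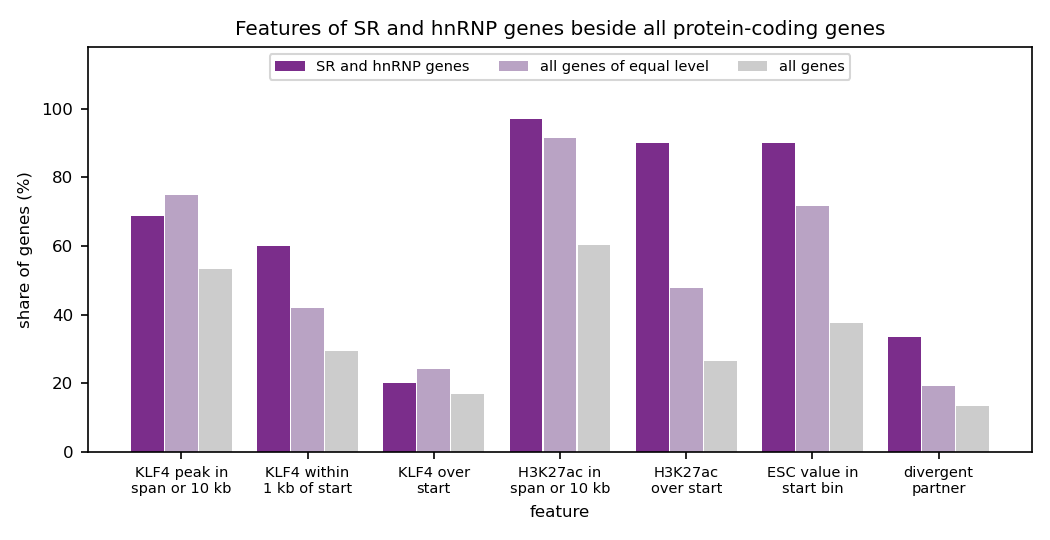
Share of genes (y axis, %) with each feature (x axis) for the SR and hnRNP genes, for all genes of equal level and for all protein-coding genes. KLF4 anywhere in the span or flanks was at 68.8% and below the share at equal level, 74.7%, while KLF4 within 1 kb of a start was at 60% against 41.9% and H3K27ac over the start at 90% against 47.6%.

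The sequences under the KLF4 peaks at the starts of Srsf3, Srsf5, Srsf6 and Srsf7 are printed here. They show which letters lie below peaks that reach a start or end just before it. Each runs 5′ to 3′ on the gene's strand, from the RefSeq promoter table of GRCm38.p6, and covers the bases before the gene's first annotated base that lie both in the peak and in the table's window. The peaks of Srsf3 and Srsf5 reach farther upstream than that window. Srsf2 and Srsf10 also had KLF4 just upstream of a start, but those bases lie inside their annotated gene spans, so none are printed. Capitals mark CACCC, the core of KLF elements, and GGGCGG, the GC box of Sp and KLF factors, each on either strand (GGGTG and CCGCCC are their reverse complements).
Srsf3, chr17:29032410-29032637, plus strand: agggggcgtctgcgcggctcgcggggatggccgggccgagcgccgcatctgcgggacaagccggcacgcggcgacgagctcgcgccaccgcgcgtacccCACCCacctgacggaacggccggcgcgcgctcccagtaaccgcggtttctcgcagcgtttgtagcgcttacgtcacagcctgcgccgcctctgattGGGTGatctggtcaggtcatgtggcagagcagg
Srsf5, chr12:80945249-80945494, plus strand: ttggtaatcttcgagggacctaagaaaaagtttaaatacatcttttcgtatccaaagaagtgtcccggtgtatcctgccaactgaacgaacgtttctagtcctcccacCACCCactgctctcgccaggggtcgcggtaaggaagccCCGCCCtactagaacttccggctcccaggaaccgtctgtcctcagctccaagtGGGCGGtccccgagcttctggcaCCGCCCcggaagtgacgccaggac
Srsf6, chr2:162931342-162931507, plus strand: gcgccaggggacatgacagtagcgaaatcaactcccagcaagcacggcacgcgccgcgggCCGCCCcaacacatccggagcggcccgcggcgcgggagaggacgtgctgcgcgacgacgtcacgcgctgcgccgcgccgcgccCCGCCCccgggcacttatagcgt
Srsf7, chr17:80207370-80207457, minus strand: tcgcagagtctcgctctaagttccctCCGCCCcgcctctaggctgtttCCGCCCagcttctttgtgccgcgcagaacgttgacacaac
In these stretches Srsf3 had 2 CACCC matches and no GC box, Srsf5 had 1 and 3, and Srsf6 and Srsf7 had 2 GC boxes each and no CACCC. The table's whole windows, which also include bases after the start, held 4 CACCC matches and 5 GC boxes in Srsf2. In Srsf10 they were 0 and 3.

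Neither longer KLF sequence searched, GGGTGTGG or GGGCGTGG, was found in these 4 stretches. GGGCGTGG occurred in 2 genes of the 30 with a promoter window, Hnrnpf and Hnrnph3, and both sites lay inside a KLF4 peak. The 30 bases around each site are shown with the match, read on the other strand, in capitals.
Hnrnpf, chr6:117907773-117907802, plus strand: ccgcccaccgcCCACGCCCggcccgagcga
Hnrnph3, chr10:63024052-63024081, minus strand: tcgctgcgactCCACGCCCaccacggtggc
The matches began at positions -20 and -221 from an annotated start.

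For contrast, the 150 bases before the starts of Hnrnpa0 and Hnrnph2, which are highly acetylated and had no KLF4 peak, are shown with the same capitals.
Hnrnpa0, chr13:58128557-58128706, minus strand: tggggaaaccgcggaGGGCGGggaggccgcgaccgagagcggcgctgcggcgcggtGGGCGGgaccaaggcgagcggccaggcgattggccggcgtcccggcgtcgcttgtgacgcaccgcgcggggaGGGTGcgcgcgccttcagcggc
Hnrnph2, chrX:134601029-134601178, plus strand: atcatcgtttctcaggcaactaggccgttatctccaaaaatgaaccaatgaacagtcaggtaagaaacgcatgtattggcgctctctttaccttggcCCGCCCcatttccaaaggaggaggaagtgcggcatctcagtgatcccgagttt
Hnrnpa0 held 2 GC boxes and 1 CACCC match and Hnrnph2 1 GC box, so GC boxes were present with and without a KLF4 peak.

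Over the whole table, the 30 genes had 42 promoter windows of 250 bases before to 50 after a start, and all genes with a start had 21044. Windows of 1 gene overlap in part and share sequence. The median GC content was 67.8% in the windows of SR and hnRNP genes and 56.7% in all windows, with medians of 29.5 and 13 CpG. GGGCGG was present in 81.0% of their windows against 46.7% of all, CCGGAAG (an ETS-type motif) in 23.8% against 11.7%, CCAAT in 52.4% against 38.5%, CACCC in 54.8% against 59.8%, and TATAAA in 11.9% against 12.7%. GGGTGTGG was present in none, against 3.64%, and GGGCGTGG in 4.76%, against 7.04%. In windows that a KLF4 peak touches, GGGCGTGG was present in 2 of 13 for these genes and in 18.9% of all 4464. GC boxes were present in 11 of the 13 such windows and in 23 of the 29 others. All motifs were searched on both strands, each GGGTGTGG also holds a CACCC match, and a match describes letters only.

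Counted by gene, CCAAT was present in a window of 14 of 19 hnRNP and 4 of 11 SR genes, against 42.7% of all genes. CCGGAAG was present in 2 of 19 hnRNP and 4 of 11 SR genes, against 13.1%. Neither difference between the families was tested. A KLF4 peak touched 13 of the 42 windows, or 31.0%, against 21.2% of all windows, and an H3K27ac peak 39 of 42, or 92.9%, against 34.4%.

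Divergent gene pairs were common. Of the 30 genes with a start, 10 had another gene that starts within 1 kb upstream on the other strand, against 13.3% of all genes and 19.2% at equal level. The pairs were Hnrnpa1 with Cbx5 and Hnrnpa2b1 with Cbx3, both heterochromatin protein genes, Hnrnpa3 with Gm39859, Hnrnpdl with Enoph1, Hnrnph2 with Gla, Hnrnph3 with Pbld2, Hnrnpk with Rmi1, Srsf11 with Lrrc40, Srsf2 with Mfsd11 and Srsf3 with Gm16196. The starts were 37 bp (Srsf3) to 772 bp (Hnrnpdl) apart. Acetylation and KLF4 between such starts cannot be assigned to 1 gene of the pair.

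KLF4 in iPSCs and the change in ESCs were set side by side by bin. The 34 measured bins of these genes that held an iPSC KLF4 peak had a median relative value of -0.05, with 22 below 0, or 64.7%. The 61 without one had a median of 0.05, with 21 below 0, or 34.4%. Over all bins, the medians were -0.08 with KLF4, 63.4% of them below 0, and 0.06 without, 41.5% below 0. The medians thus had the same order in both sets of bins. Bins with KLF4 also had higher 0 h values, with medians of 7.33 against 5.71 in these genes and 5.79 against 4.41 over all bins. The comparison was not made at equal level, so KLF4 and level cannot be told apart here. At the level of genes, the 18 with KLF4 within 1 kb of a start had a median of 0.01 and the other 11 measured genes with a start 0.13. The same medians over all genes were 0.01 and 0.02.

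The other components of the splicing machinery were read from 5 lists with 75 genes. Of these, 68 were measured. The U1 and U2 snRNP and branch-point genes had a median relative value of 0.04 over 16 measured genes, and the tri-snRNP and Sm core genes 0.06 over 16. SR-related genes had 0.07 over 8, other splicing regulators, some of them hnRNPs under another symbol, 0.10 over 21, and SR kinases and import genes -0.08 over 7. Set against 8.06% and 9.45% of all genes past 0.32 in the 2 directions, 1 of the 68 fell (Tra2a) and 3 rose (Sf3a1, Prpf4 and Khdrbs1, the last outside the naming rule and named after its value of 0.51 was seen).

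Tra2a, an SR-related activator of exon inclusion, had the lowest value of these lists, -0.41 ± 0.21 (SD over 3 bins), with a highest bin of 10.2 at 0 h and 6.82 at 24 h and 3 KLF4 peaks. Among the regulators of SR proteins, Srpk1, a kinase that phosphorylates their arginine- and serine-rich domain, was at -0.30 ± 0.38 (SD over 4 bins) with 5 KLF4 peaks, and Tnpo3, which imports them to the nucleus, at -0.13 ± 0.17 (SD over 5 bins). The nuclear kinase gene Clk1 was at 0.29 ± 0.21 (SD over 3 bins), and Clk2 had 6 KLF4 peaks and a value of 0.03. None of these 4 passed 0.32.

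Of the core genes, Snrnp70, which encodes the U1 protein that contacts SR proteins, was at -0.27 ± 0.47 (SD over 5 bins), and Sf3a1, a U2 component, at 0.34 ± 0.39 (SD over 3 bins). Prpf4 of the tri-snRNP was at 0.38 ± 0.55 (SD over 2 bins) and Cdc5l at -0.19 ± 0.41 (SD over 6 bins). Son, which encodes a scaffold of nuclear speckles, was at 0.31 ± 0.40 (SD over 5 bins). Of the hnRNP genes under other symbols, Raly was at -0.15 ± 0.37 (SD over 5 bins), and Pcbp1, with 5 KLF4 peaks, at -0.12 in bins that share 1 value. KLF4 was present around 10 of 18 U1 and U2 genes and 9 of 18 tri-snRNP and Sm genes, against 53.2% of all genes, and around all 7 SR kinase and import genes, all 8 SR-related genes and 21 of 24 other regulators. Within 1 kb of a start it was found at 3 of 14 and 2 of 13 of the core genes with a start, at 5 of 6 and 5 of 8 of the kinase and SR-related genes, and at 9 of 16 other regulators.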

How the data were processed

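The 12 samples were grouped by title and the lists tied to groups by the authors' names for them. The tools were Bowtie2, MACS2, SAMtools and bedtools, with build mm10, per the submitters' processing notes, which give no version or role in what is held here. The pooling of replicates is not stated. The deposited ESC lists have no header. The authors' column 4 was used as a score, and column 10 as H3K27ac signal, where the smallest storable number was read as no value. The 5 columns between them were not used. In the deposited iPSC lists the columns hold other data, positions only. Depth is unknown. Peaks overlap at 1 bp or more. Gene spans and names came from RefSeq (GRCm38.p6), promoter sequences for 30 of the 32 genes. Equal level is the mean, over the genes, of the share called in each gene's decile, with unmeasured genes as a class of their own.

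The genes, the lists of other splicing genes and all rules were chosen with earlier results of these data known. Every SR and hnRNP gene could be named. From each other list the 2 lowest and 2 highest relative values among genes with 2 or more measured bins were named, and the 2 genes with most KLF4 peaks. Motifs other than CACCC and the 2 KLF sequences, and the counts of start bins, divergent pairs and single bins past 0.32, were chosen after seeing the data. Computation used Python 3.11.15, numpy 2.4.6, pandas 2.3.3, scipy 1.17.1 and matplotlib 3.10.9. The per-gene values were tested on simulated data, and the KLF4 peak counts of a sample of genes against a direct count on the real peaks. Alternatives changed the flank, the bins, the centring, the fold, the minimum score, the overlap and the distance to starts.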

Additional observations from a re-analysis of the deposited data

How the results depend on the processing

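The ESC values of all genes shift with the scaling: without centring, the median over the 31 measured genes was -0.19 (-0.21 over all genes), 30 were below 0, 5 fell by 0.32 or more and 0 rose. Counts past 0.32 rest on 3 genes. The 2 that fell became 0 with 25 kb flanks, with the highest bin alone and at a fold of 1.5, and 1 without flanks. The 1 that rose became 0 with 25 kb flanks, without flanks, with 1 bin per run of equal values, with the highest bin alone and at a fold of 1.5. By its highest bin, Hnrnph3 was at 0.02. For the score, 0 genes fell without flanks, 1 rose over bins listed at both times, and 0 rose without centring. The 49 KLF4 peaks became 74 with 25 kb flanks, 28 without flanks and 24 in the wider 50% of peaks, and the 201 H3K27ac peaks became 125 without flanks and 88 in the wider 50%. Bins valued at 0 h alone numbered 4 without flanks, and those valued at 24 h alone 2 with 25 kb flanks and 0 without. H3K27ac centres within 500 bp of a start were found at 17 genes. The other 82 of 108 alternative values stayed within 1.5 times the count or 1 SD of the value. Among these, the median relative value changed sign to -0.03 with the highest bin alone, when 18 genes were below 0, and the median score to -0.11 without centring (-0.11 over all genes). The 3 genes past 0.32 in acetylation kept their sign in each alternative. The outermost-start alternative and the one without Hnrnpa1l2-ps2 were chosen after seeing the data. No paired analysis was possible because each group has 1 list, and leaving out a replicate was not run for the same reason. The unknown depth limits what a missing value or peak can show.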
